A study of Rattus norvegicus with 16 samples.

Results

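Expression of 7 genes was followed in PCCl3 cells, a differentiated rat thyroid follicular line, after silencing of *Pax8*: *Pcp4*, *Aspg*, *F10*, *Hsd17b1*, *Dab2ip*, *Tmod1* and *Nppc*. They were picked from these same arrays for their falls in siPax8 cells, so that their log2 ratios in both comparisons, and the difference between them, describe the choice and carry no test. RefSeq accessions assigned 9 of the 41012 probes to these 7 of 8899 named genes, with 2 probes each for *Dab2ip* and *Tmod1* and 1 for each of the others. Of these, 5 were listed as lower against both controls, and *Nppc* and *Tmod1* as lower against wild type (wt) cells only. The second label did not hold for *Tmod1*, both probes of which also lay below 0 against scramble cells on every array.

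RNA of cells transfected with a *Pax8* siRNA (siPax8) was hybridized to 2-colour Agilent rat arrays in competition with RNA of wt cells on 8 arrays, and in competition with RNA of cells that received a scrambled siRNA (scramble) on the other 8. Each comparison held 4 replicates labelled as biological, each hybridized once with siPax8 RNA in Cy5 and once in Cy3. Both siRNAs were given at 10 ng/ml with a lipid reagent, RNA was taken after 48 hours, and all cultures were kept in the same medium with TSH, insulin and hydrocortisone. The labels call the remaining cells wild type, whereas the methods of the study describe them as treated with the lipid reagent alone, and a supplement as not transfected, so how far these cells share the handling of the others is unsettled. The siPax8 samples serve both comparisons, which are therefore not independent and are given side by side. Every log2 ratio below is siPax8 over control, and values under 0 mean less signal in siPax8 cells. The direction follows the dyes in the labels, while the deposited value table runs the opposite way.

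Pax8 is a paired-domain transcription factor that thyroid follicular cells need to form and to keep their differentiated state, in which they take up iodide and build hormone on thyroglobulin. An siRNA lowers the target mRNA for some days, and a scrambled siRNA passes through the same transfection without a matching target. The 7 genes act in unrelated processes: calmodulin binding (*Pcp4*), amide hydrolysis (*Aspg*), blood clotting (*F10*), oestrogen synthesis (*Hsd17b1*), Ras signalling (*Dab2ip*), actin filament length (*Tmod1*) and natriuretic peptide signalling (*Nppc*).

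RefSeq promoter windows of the assembly GRCr8, from 250 bases before to 50 after the start of the gene, were found for 6 of the 7 genes and not for *Hsd17b1*. Their sequence was not used in choosing the genes. The windows of 4 are shown because they span the base composition of the group, with capitals for each CG dinucleotide. *F10* and *Pcp4* fell against both controls by similar amounts, and *Nppc* and *Tmod1* fell mainly against wt cells.
F10, chr16:83190231-83190530, minus strand: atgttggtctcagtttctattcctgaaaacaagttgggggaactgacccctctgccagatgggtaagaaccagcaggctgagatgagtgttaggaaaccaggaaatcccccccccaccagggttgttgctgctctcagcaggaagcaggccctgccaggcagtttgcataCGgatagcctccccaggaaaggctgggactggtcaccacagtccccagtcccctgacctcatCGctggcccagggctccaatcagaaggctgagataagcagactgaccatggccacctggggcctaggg
Pcp4, chr11:49269936-49270235, plus strand: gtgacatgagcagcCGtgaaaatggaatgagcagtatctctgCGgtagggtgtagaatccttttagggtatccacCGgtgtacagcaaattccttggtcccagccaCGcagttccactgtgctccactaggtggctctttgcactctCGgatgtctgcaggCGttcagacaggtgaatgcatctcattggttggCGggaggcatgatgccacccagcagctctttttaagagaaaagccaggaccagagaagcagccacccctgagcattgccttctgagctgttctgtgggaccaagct
Nppc, chr9:94772137-94772436, minus strand: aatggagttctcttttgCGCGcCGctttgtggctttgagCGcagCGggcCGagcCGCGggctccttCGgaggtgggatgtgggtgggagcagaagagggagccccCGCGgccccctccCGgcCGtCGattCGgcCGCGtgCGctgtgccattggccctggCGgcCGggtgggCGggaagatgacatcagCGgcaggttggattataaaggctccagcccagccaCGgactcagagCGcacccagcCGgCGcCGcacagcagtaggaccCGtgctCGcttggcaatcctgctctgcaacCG
Tmod1, chr5:65111812-65112111, plus strand: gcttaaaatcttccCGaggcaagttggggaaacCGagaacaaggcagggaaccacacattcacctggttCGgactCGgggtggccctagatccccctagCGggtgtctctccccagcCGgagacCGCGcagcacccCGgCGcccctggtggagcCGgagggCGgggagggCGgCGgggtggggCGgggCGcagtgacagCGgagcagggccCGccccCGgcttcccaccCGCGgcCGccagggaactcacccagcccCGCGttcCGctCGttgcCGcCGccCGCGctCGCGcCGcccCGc

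These windows differed widely in CG dinucleotides. *F10* held 2 and *Pcp4* 7, against 30 in *Nppc* and 34 in *Tmod1*. The observed over expected CpG ratio was 0.08 for *F10*, 0.33 for *Pcp4*, 0.37 for *Aspg* and 0.50 for *Dab2ip*, and 0.87 for *Nppc* and 0.84 for *Tmod1*, with a median of 0.39 over 33469 promoters. GC content was 53.3% to 60% in the 4 former windows, 68% in *Nppc* and 73.7% in *Tmod1* (median of all promoters 51.7%). With 4 windows against 2, no test of this difference was made. The grouping follows the list and not the ratios alone. *Aspg*, with a CpG ratio of 0.37, was like *Nppc* and *Tmod1* lower against wt than against scramble (difference -0.45).

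None of the 6 windows held, on either strand, the letters GCGTGAC (the core that Pax paired domains bind, in 2% of all promoters), CTCAAG (a core bound by the thyroid factor Nkx2-1, 15.8%), TGACGTCA (the cAMP response element, 1.83%) or TGACG (its shorter form, contained in the longer, 21.2%). CCAAT occurred in *Pcp4*, *F10* and *Nppc* (37.5% of all promoters), GGGCGG in *Aspg*, *Nppc* and, 6 times, in *Tmod1* (33.1%), TATAAA only in *Nppc* (14.2%) and AGATAA only in *F10* (11.6%). These counts describe the letters of 300 bases per gene and not binding. The study placed most Pax8 sites in introns, and reported Pax8 immunoprecipitation at *Dab2ip* and *Tmod1* wherever in the gene the site lay. It also reported lower expression of both genes after *Pax8* silencing, by real-time PCR on separate samples.

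The silenced gene was examined first. The study reported less Pax8 protein by immunoblot after silencing, whereas the arrays measured its mRNA only. The *Pax8* probe gave log2 ratios of -0.84, -0.57, -0.59 and -0.26 in replicates 1 to 4 against wt cells, and of -0.58, -0.29, -0.12 and -0.01 against scramble cells. All replicate means lay below 0, but the channel levels overlapped in both comparisons. The mean was -0.56 ± 0.24 (SD, n = 4), or 67.6% of wt, past the threshold (limma, adjusted p = 0.000496), and -0.25 ± 0.25 (SD, n = 4), or 84.2% of scramble, which was not (limma, adjusted p = 0.147). The replicate in which *Pax8* changed least, replicate 4, held the lowest ratios of *Pcp4*, *Aspg*, *F10*, *Hsd17b1* and *Tmod1* in both comparisons. For *Nppc* it did so against scramble only, and for *Dab2ip* in neither comparison (means over both probes for *Dab2ip* and *Tmod1*). As such ratios chose the genes, nothing is read from this order, and its relation to *Pax8* was not tested.

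All 9 member probes were well above background in both channels on every array, without outlier or saturated spots. Against wt cells all 9 were called lower (limma, adjusted p below 0.005), where 8.19% of all probes were called lower and 7% higher, and all 9 had siPax8 and wt levels that did not overlap over the 8 arrays. Against scramble cells 7 were called lower, where 0.849% of all probes were called lower and 1.18% higher, and the levels of 8 did not overlap. Counted over named genes with every probe called, the background was 9.41% lower and 7.19% higher against wt, and 1.25% lower and 1.62% higher against scramble. The arrays chose the genes, so nothing is read from these counts. The median ratio of the 9 probes was -0.95 against wt and -0.41 against scramble, beside -0.01 and 0 over all named genes. As RNA of whole cultures was measured, fewer expressing cells and less RNA per cell cannot be told apart.

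**Figure D1:**
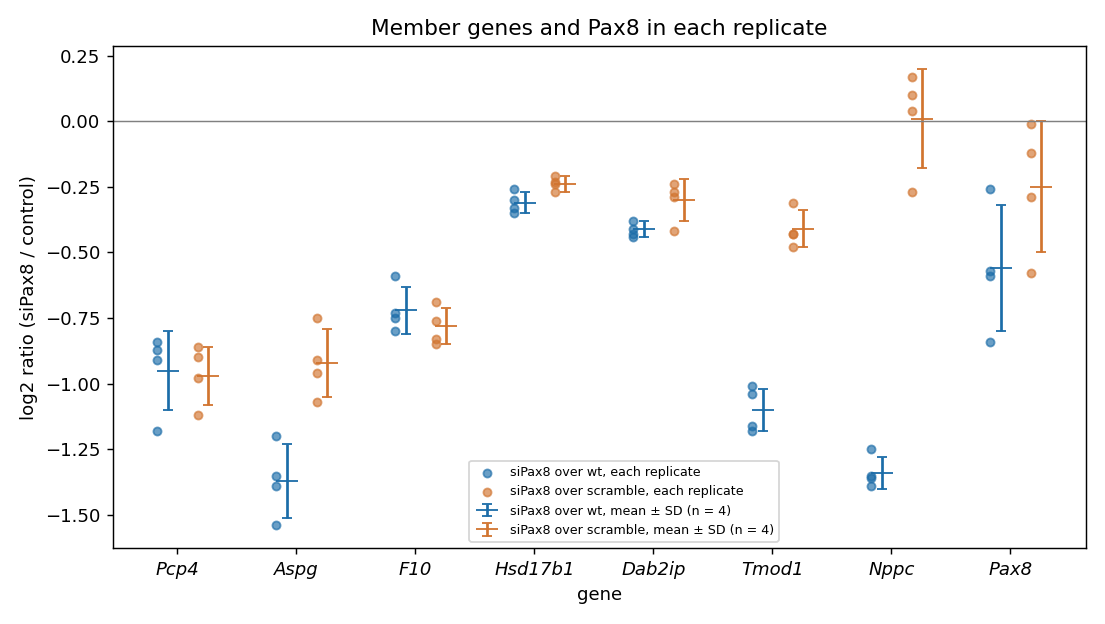
Log2 ratio of siPax8 over wt (blue) and over scramble (orange) for the 7 genes and *Pax8*; dots are the 4 replicates (mean of the dye swap, and of both probes for *Dab2ip* and *Tmod1*), bars the mean ± SD. *Pcp4* and *F10* lie at a similar depth in both comparisons, *Tmod1* is at -1.10 and -0.41, and *Nppc* is at -1.34 and 0.01.

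*Pcp4* encodes a small peptide that binds calmodulin and speeds its exchange of calcium. Its log2 ratios were -0.84, -0.91, -0.87 and -1.18 against wt and -0.90, -0.98, -0.86 and -1.12 against scramble. The replicates of both comparisons overlapped, and no array had a ratio above -0.65. The means were -0.95 ± 0.15 and -0.97 ± 0.11 (SD, n = 4), so that siPax8 cells held 51.8% of the wt and 51.2% of the scramble signal. Among named genes *Pcp4* ranked 20 from the lowest against wt and 2 against scramble. It differed by 0.02 ± 0.10 (SE) between the comparisons. This SE and those below treat the comparisons as independent groups, although they share siPax8 samples.

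*F10* encodes coagulation factor X, the serine protease that as Xa turns prothrombin into thrombin and that is made mainly by the liver. It gave -0.75, -0.59, -0.73 and -0.80 against wt, and -0.76, -0.83, -0.69 and -0.85 against scramble. These also overlapped between the comparisons. The means were -0.72 ± 0.09 and -0.78 ± 0.07 (SD, n = 4), or 60.8% and 58.1% of the control. *F10* was the member with the widest gap between dyes, at -0.87 with siPax8 in Cy5 and -0.56 with siPax8 in Cy3 against wt, yet its highest array against wt was at -0.48.

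*Aspg* encodes an enzyme with asparaginase and lysophospholipase activity. Its ratios of -1.20, -1.35, -1.39 and -1.54 against wt had the lowest mean of all 8899 named genes, -1.37 ± 0.14 (SD, n = 4), or 38.7% of wt. Against scramble they were -0.75, -0.91, -0.96 and -1.07, with a mean of -0.92 ± 0.13 (SD, n = 4), or 52.8%, and rank 3. Every replicate was lower against wt than any was against scramble. The means differed by -0.45 ± 0.10 (SE), so that the fall against scramble was 67.3% of the fall against wt.

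*Hsd17b1* encodes the hydroxysteroid dehydrogenase that reduces oestrone to oestradiol. It had the smallest fall of the 7 genes against wt, and one of the narrowest spreads. It gave -0.26, -0.30, -0.33 and -0.35 against wt and -0.24, -0.21, -0.23 and -0.27 against scramble, for means of -0.31 ± 0.04 and -0.24 ± 0.03 (SD, n = 4). The corresponding signals were 80.6% and 84.9% of the control. Its rank from the lowest was 376 and 183, which is not a strong fall beside those of *Aspg* or *Pcp4*.

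*Dab2ip* encodes a GTPase-activating protein for Ras that binds the adaptor Dab2. The brighter of its 2 probes gave -0.38, -0.49, -0.53 and -0.56 against wt and -0.40, -0.38, -0.58 and -0.27 against scramble. The dimmer probe gave -0.44, -0.39, -0.22 and -0.29 against wt, and -0.13, -0.20, -0.27 and -0.20 against scramble, where it was not called. Both probes were below 0 in every replicate, and the dimmer one was the smaller in mean in both comparisons. The mean over both probes was -0.41 ± 0.03 and -0.30 ± 0.08 (SD, n = 4), or 75% of wt and 81% of scramble.

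*Tmod1* encodes tropomodulin 1, which caps the pointed end of actin filaments and limits their length. Its first probe gave -1.01, -0.83, -1.05 and -0.99 against wt and -0.30, -0.41, -0.35 and -0.27 against scramble. The second gave -1.07, -1.19, -1.26 and -1.37 against wt and -0.31, -0.44, -0.50 and -0.69 against scramble. Both probes fell in every replicate against both controls, and the ranges of the 2 comparisons were apart for each. The gene mean was -1.10 ± 0.08 (46.8% of wt) and -0.41 ± 0.07 (75.2% of scramble; SD, n = 4). The difference was -0.68 ± 0.06 (SE), and the fall against scramble was 37.6% of that against wt. With rank 35 of 8899 against scramble, *Tmod1* ranked ahead of *Dab2ip* (85) and *Hsd17b1* (183), both of which were listed as lower against both controls.

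*Nppc* encodes C-type natriuretic peptide, which raises cGMP through the receptor Npr2. It gave -1.25, -1.39, -1.35 and -1.36 against wt, for a mean of -1.34 ± 0.06 (SD, n = 4), 39.6% of wt and rank 2. Against scramble it gave 0.17, 0.10, 0.04 and -0.27, for a mean of 0.01 ± 0.19 (SD, n = 4), or 101% of scramble, with 3 of 8 arrays below 0. It was the one member without a fall against scramble cells. The means differed by -1.35 ± 0.10 (SE).

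The channel levels show in which samples these differences lay. On the log2 scale of normalised intensity the siPax8 channel of *Nppc* had a median of 9.45 on the arrays against wt and of 9.32 on those against scramble. The wt channel, by contrast, had a median of 10.74 (10.67 to 11.01) and the scramble channel one of 9.28 (9.09 to 9.59). The second *Tmod1* probe showed the same order, with siPax8 medians of 9.66 and 9.61, a wt median of 10.81 and scramble levels from 9.97 to 10.18. For *Aspg* the siPax8 medians were 8.09 and 8.01, that of wt 9.41 and that of scramble 8.94. For *Pcp4* the wt and scramble medians, 8.99 and 9.02, were nearly equal, as were the siPax8 medians of 8.09 and 8.08. Thus *Nppc* stood at a like level in scramble and siPax8 cells, *Pcp4* at a like level in wt and scramble cells, and *Tmod1* and *Aspg* had scramble levels between those of wt and siPax8 cells. Wt and scramble RNA met on no array, so this rests on the normalization across arrays.

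**Figure D2:**
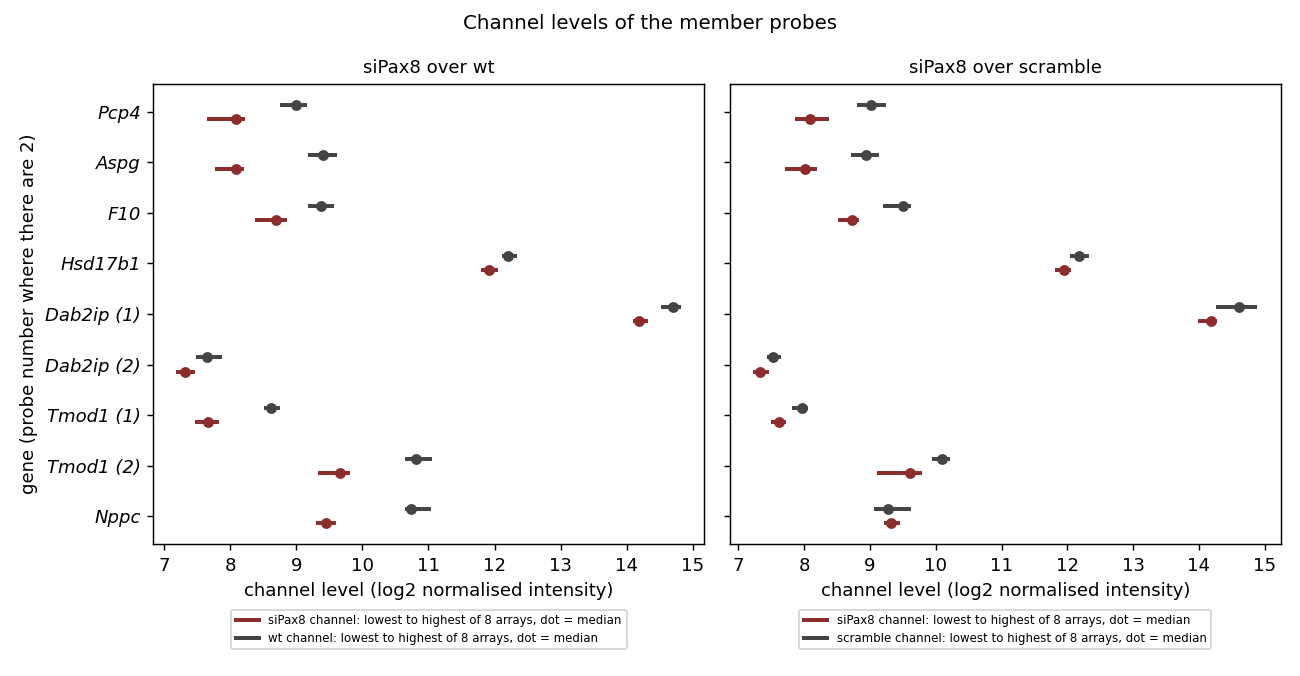
Levels of the 9 member probes (log2 normalised intensity; lowest, median and highest of 8 arrays) in the siPax8 channel (red) and the control channel (grey), against wt on the left and scramble on the right; levels of different probes are not comparable. The channels are apart for all 9 probes on the left and for all but *Nppc* on the right.

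The slides each held 2 arrays of each comparison. Within single slides *Tmod1* lay between -1.12 and -1.06 against wt, and between -0.50 and -0.29 against scramble, and *Nppc* between -1.42 and -1.29, and between -0.08 and 0.10. *Aspg* ranged from -1.41 to -1.33 and from -1.04 to -0.78. The order of the comparisons for these 3 genes was therefore the same on each slide. Slides 1 and 4 both held replicates 1 and 4 of each comparison with the dyes exchanged, and slides 2 and 3 replicates 2 and 3. The slides are thus not independent, and as such ratios chose the genes, nothing is read from this order.

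Interferon-response genes, thyroid genes and markers of other cell types were set beside these values. Of 20 measured interferon-response genes, 15 rose against wt cells, with a list median of 0.99, and 1 against scramble cells, with a median of 0.22 and 15 higher at an unadjusted p below 0.05. *Oas1a*, a sensor of double-stranded RNA, was at 2.93 (limma, adjusted p = 1.04e-06) and 0.40 (0.0585), and *Irf7*, a transcription factor of the interferon response, at 2.36 (limma, adjusted p = 8.48e-09) and 0.74 (0.000378). *Mx2*, an antiviral GTPase, was at 2.86 (limma, adjusted p = 3.36e-06) and 0.60 (0.0531), and *Rsad2*, the antiviral enzyme viperin, at 2.33 (limma, adjusted p = 0.000138) and 0.61 (0.0817). The interferon list thus moved with the wt comparison, the one in which *Nppc*, *Tmod1* and *Aspg* were lower. Its part in those values was not tested.

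Of 13 thyroid genes measured, the silenced *Pax8* among them, 10 fell and 1 rose against wt, and 1, *Tg*, fell against scramble. The anion exchanger *Slc26a4*, named after its value was seen, was the one that rose, to 0.64 (limma, adjusted p = 2.02e-06). Against scramble it was at -0.18 (0.104), a difference that passed the threshold (4.22e-05). The median of this list was -0.56 against wt and -0.18 against scramble, where 11 genes lay below 0 and 9 were lower at an unadjusted p below 0.05. *Tg*, the thyroglobulin that carries thyroid hormone during its synthesis, was at -0.96 ± 0.17 and -0.65 ± 0.12 (SD, n = 4; limma, adjusted p = 5.06e-06 and 0.000598). The *Tg* probe had a mean log2 intensity of 16, the highest of this list, and its saturation was not examined, so the size of its fall is uncertain. The deiodinase *Dio1* was at -0.80 (limma, adjusted p = 1.36e-06) and -0.24 (0.0129) and the oxidase *Duox2* at -0.66 (6.88e-05) and -0.13 (0.113). Of 12 markers of other cell types measured, only the macrophage marker *Cd68* was called, at 0.30 against wt (limma, adjusted p = 0.000829), and *Alb*, *Dcn*, *Lum*, *Pecam1* and *Ttr* were well above background in no channel. Other markers of this list, named after their values were seen, did give signal. *Apoa1* was well above background in 87.5% of channels, *Col1a2* in 51.6%, *Calca* in 50% and *Chga* in 21.9%, and *Cd68* in 100%.

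The pathways around the 7 genes were counted next, without the members themselves. Of 168 genes measured in 7 lists, 18 (10.7%) fell and 7 (4.17%) rose against wt cells, beside 9.41% and 7.19% of all named genes, and 4 (2.38%) fell and 2 (1.19%) rose against scramble cells, beside 1.25% and 1.62%. Of the 25 calls against wt 7 held under each of the 14 alternatives that tested them, and of the 6 against scramble none did. None of these 6 was called under Agilent's processed intensities, the 1 alternative under which *F3* lost its scramble call. The medians of the lists lay between -0.02 and 0.03 in both comparisons, against -0.01 and 0 over all named genes.

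Of 28 coagulation genes measured, 2 fell and 1 rose against wt and 1 fell against scramble, with medians of 0.01 and 0. *F3*, tissue factor, which starts the cascade that activates factor X, fell in both comparisons, at -0.88 ± 0.03 and -0.58 ± 0.07 (SD, n = 4; limma, adjusted p = 2.31e-07 and 0.000281), and more so against wt (limma, adjusted p of the difference = 0.00189). *Kng1*, the kininogen that releases bradykinin, fell to -1.12 ± 0.08 against wt (limma, adjusted p = 1.85e-07) and was at -0.21 ± 0.07 against scramble (0.0105), which was a difference of the comparisons (3.2e-06). *Vkorc1*, the vitamin K epoxide reductase, was at 0.18 against wt (limma, adjusted p = 0.00343), but at -0.18 on the arrays with siPax8 in Cy5 alone, and not called with a replicate block (0.227). Of further vitamin K dependent proteases, named after their values were seen, *F7* and *Proc* were well above background in no channel. *F2*, prothrombin, was so in 100% of channels and was not called, at -0.14 against wt and -0.12 against scramble.

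Of 23 genes of natriuretic peptide and cGMP signalling, 5 fell and 1 rose against wt and none was called against scramble (limma at adjusted p below 0.005; 3 lower and 1 higher at an unadjusted p below 0.05), with medians of -0.01 and 0. *Npr2*, the guanylate cyclase that C-type natriuretic peptide binds, fell to -0.39 ± 0.06 against wt (SD, n = 4; limma, adjusted p = 3.55e-05) and was at 0.02 ± 0.05 against scramble (0.78). This difference between the comparisons passed the threshold (limma, adjusted p = 0.000211). The cGMP phosphodiesterases *Pde2a* and *Pde9a* were at -0.68 and -0.53 against wt (limma, adjusted p = 1.74e-06 and 1.53e-05) and at -0.23 and -0.15 against scramble (0.00895 and 0.031), and both differed between the comparisons (0.000267 and 0.00114). *Pde3b*, which hydrolyses cAMP and is inhibited by cGMP, was at -0.38 (limma, adjusted p = 0.000113) and -0.12 (0.203). *Nppb*, the B-type peptide, named after its value was seen, rose to 0.36 against wt (limma, adjusted p = 8.29e-05). Against scramble it was at 0.21 (0.00595), and was called there under 4 of 14 alternative settings. Its probe was well above background in 65.6% of channels, and *Nppa* was well above background in none.

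Of 24 genes of the actin pointed end and membrane skeleton, 1 fell and 2 rose against wt, and 1 fell and 1 rose against scramble. *Tmod3*, the widely expressed tropomodulin, was at 0.22 against wt (limma, adjusted p = 0.000699, or 0.00584 with a replicate block) and was at -0.03 against scramble (0.897), and the capping protein subunit *Capzb* rose to 0.25 (0.00198) and was at 0.13 (0.143). *Tmod2*, named after its value was seen, was well above background in no channel.

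**Figure D3:**
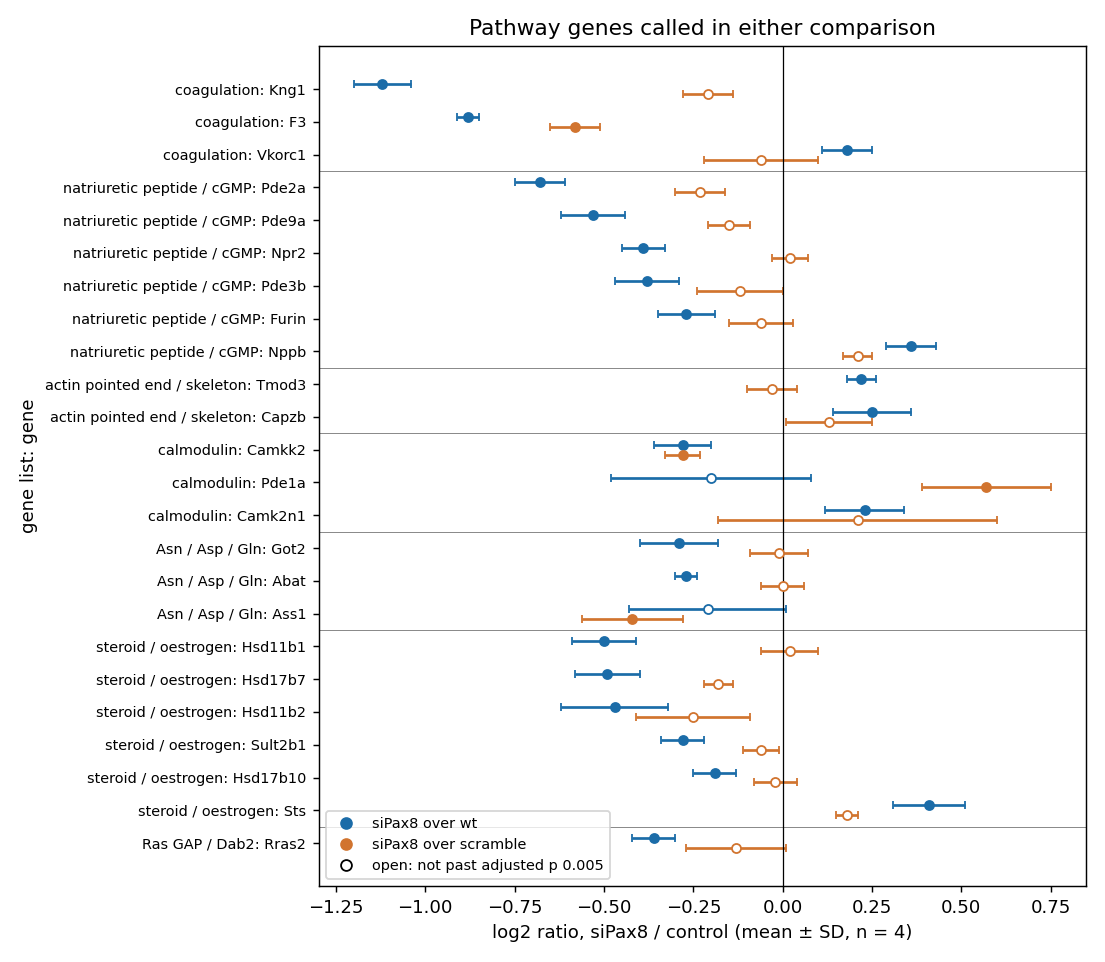
Log2 ratio (mean ± SD, n = 4) of genes of the 7 pathway lists that were called in either comparison, over wt in blue and over scramble in orange; filled dots passed adjusted p 0.005. *F3* and *Camkk2* are filled on the left of 0 in both colours.

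Of 29 genes of calmodulin and its targets, 2 fell and 1 rose against wt, and 1 fell and 1 rose against scramble. *Camkk2*, a calmodulin-dependent kinase kinase, was at -0.28 in both (limma, adjusted p = 0.000515 and 0.00205). *Camk2n1*, an inhibitor of CaM kinase II, was at 0.23 against wt (limma, adjusted p = 0.00327) and 0.21 against scramble (0.486). The first was 0.43 with siPax8 in Cy3 and 0.03 with siPax8 in Cy5, and not called with a replicate block (limma, adjusted p = 0.0329), and the second was 0.02 without replicate 4. The phosphodiesterase *Pde1a* was at -0.20 against wt (limma, adjusted p = 0.144) and 0.57 against scramble (0.00309), a difference that passed the threshold (0.00368).

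Of 21 genes of asparagine, aspartate and glutamine metabolism, 2 fell and 1 rose against wt and 1 fell against scramble. *Got2*, the mitochondrial aspartate aminotransferase, was at -0.29 (limma, adjusted p = 0.000737) and -0.01 (0.943), and *Abat*, the GABA transaminase, at -0.27 (0.000145) and 0.00 (0.981). *Ass1*, argininosuccinate synthase, which uses aspartate, was at -0.21 (limma, adjusted p = 0.0518) and -0.42 (0.0042). The asparaginase *Asrgl1*, named after its value was seen, was not called, at -0.11 and -0.10.

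Of 30 steroid and oestrogen genes, 5 fell and 1 rose against wt, and none was called against scramble (limma at adjusted p below 0.005; 3 lower and 3 higher at an unadjusted p below 0.05). The dehydrogenases *Hsd11b1*, *Hsd17b7* and *Hsd11b2* were at -0.50, -0.49 and -0.47 against wt (limma, adjusted p = 0.000158, 2.02e-05 and 0.000184). Against scramble they were at 0.02, -0.18 and -0.25. The sulfatase *Sts* rose to 0.41 against wt (limma, adjusted p = 8.33e-05) and was at 0.18 against scramble (0.00739). Aromatase, *Cyp19a1*, and the receptor *Esr1*, named after their values were seen, were well above background in no channel. Of 13 genes measured around *Dab2ip*, 1 was called, the small GTPase *Rras2*, at -0.36 against wt (limma, adjusted p = 0.000142) and -0.13 against scramble (0.379), where 0 genes of this list passed even an unadjusted p of 0.05.

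Last, for each member up to 3 named genes with the nearest values were taken, by the root mean square distance over the 8 replicate log2 ratios, among 3963 genes with a mean log2 intensity above 8. *Pcp4* was nearest to *Cryab*, a small heat shock protein (distance 0.17; -1 against wt and -1.16 against scramble), with the connexin *Gja4* at 0.23. *F10* was nearest to *Rbm4b* (0.13; -0.75 and -0.62), then to *Syt5* and *Gja4* (both 0.17). Near *Aspg* were *Akap5* (0.28) and *Cryab* (0.33). *Cryab* and *Gja4* were thus each named by 2 of these 3 members, and lay between -1.16 and -0.72 in both comparisons. Since these 3 members fell in both comparisons, genes chosen for nearness to them do so by selection.

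Around *Nppc* lay the signalling protein *Wnt4* (0.20; -1.25 and -0.09), the retinaldehyde dehydrogenase *Aldh1a1* (0.23; -1.20 and -0.23) and the bicarbonate transporter *Slc4a8* (0.35; -1.06 and -0.20). Around *Tmod1* lay the neurotrophic factor *Nrtn* (0.13; -0.95 and -0.49), the invariant chain *Cd74* (0.14; -1.01 and -0.31) and the nucleoside diphosphate kinase *Nme3* (0.16; -0.96 and -0.34). Being chosen for their nearness, these 6 genes share the order of the comparisons with their members by selection. *Hsd17b1* was nearest to *Tdg*, *Creld2* and *Dut* (each 0.05) and *Dab2ip* to *Sh3gl3*, *Knstrn* and *Ppt2* (each 0.07), whose ratios lay between -0.41 and -0.20, a range in which many genes fall.

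**Figure D4:**
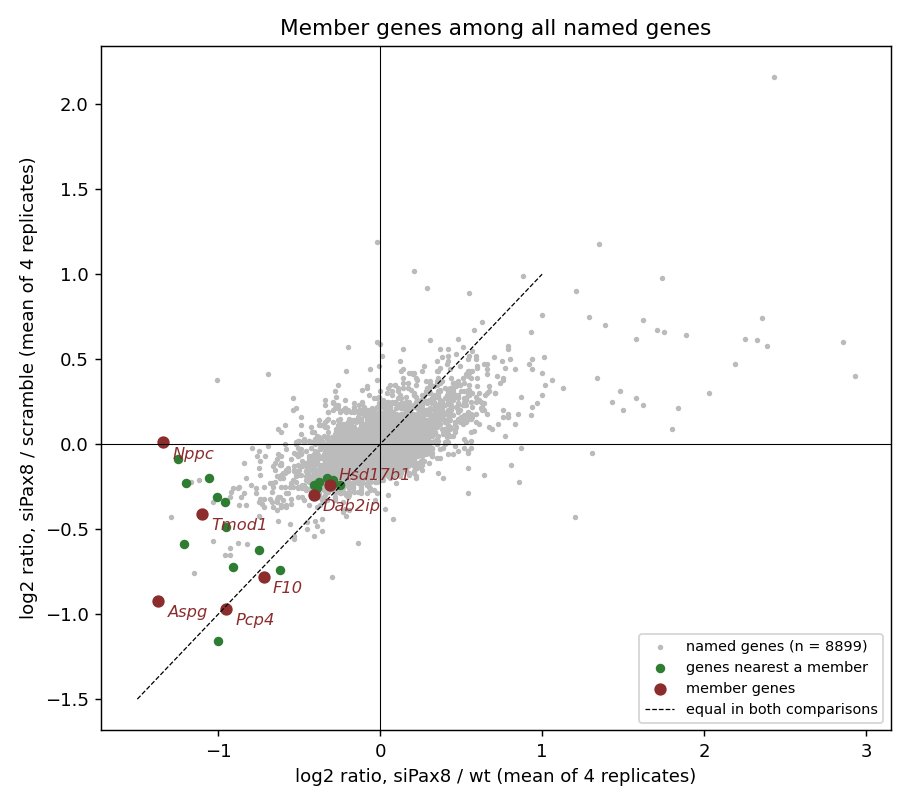
Mean log2 ratio over wt (x) and over scramble (y) of 8899 named genes (grey), the 7 members (red) and the genes nearest to them (green); the dashed line marks equal ratios. *Pcp4* and *F10* lie near the line, *Aspg* and *Tmod1* above it, and *Nppc* at -1.34 and 0.01 near the horizontal axis.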

How the data were processed

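The authors deposited the scanner output of each array, which holds raw intensities (means of the spots and medians of their background in both dyes; Feature Extraction 10.1.1.1 per the file headers, against an earlier version in the methods) and 1 table of normalized log2 ratios. That table correlated from 0.993 to 0.999 with the ratios below once its sign was turned, so it holds control over siPax8; its column medians were -0.00011 to 0.0068. Of 45018 spots per array 1639 were controls; 54% to 60.8% were well above background in Cy3 and 52% to 59.1% in Cy5. The number of arrays limits the precision.

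In R 4.3.3 with limma 3.58.1, intensities were corrected with normexp (offset 50, which shrinks ratios of dim probes), normalized by loess within and quantiles between arrays, then averaged within probes and within the dye swap of each replicate. Each comparison was fitted with lmFit and eBayes to 4 values. P-values were adjusted by Benjamini-Hochberg over 41012 probes with the study's threshold of 0.005, and a gene is called when each of its probes is. The difference was fitted to the 8 values as 2 groups. Neither this fit nor the SE of a difference takes account of the shared siPax8 samples. The scripts were tested on simulated data. Names came from RefSeq (assembly GRCr8) by accession for 10768 probes. A gene's adjusted p is the largest of its probes. The labels call replicates biological without giving the cultures.

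The members and gene lists were chosen with earlier results of these data known. Named are the members, *Pax8*, of each list at most the 4 called genes with the largest change in each comparison, and up to 3 genes nearest each member; others are marked in the text. Some genes of the lists that met these rules are not reported here, though the counts include them. Replicate numbers paired the dye orientations, with correlations of replicate deviations of 0.12 to 0.51, all above 0.1, although replicate 2 against wt correlated more with another number (0.2). Between comparisons replicate 3 reached 0.04 with its own number and 0.4 with another. It is thus in doubt that equal numbers match across the comparisons, so that pairing was an alternative. Other alternatives were the background offset, loess alone, Aquantile, Agilent's processed intensities, the deposited table, a filter on dim probes, each dye orientation, slide and replicate blocks, and leaving out replicates.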

Additional observations from a re-analysis of the deposited data

Results flagged for a closer look

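In groups of 4 replicates, the gap of the farthest replicate from the nearest other was compared with the whole range. This was done for 72 sets of values, those of the members, *Pax8* and the called genes of the pathway lists. Of these, 4 exceeded Dixon's critical value, where chance marks about 1 in 20. The thyroid genes other than *Pax8*, the interferon-response genes, the cell type markers and the genes nearest the members were not examined in this way. None belonged to a member gene or to *Pax8*. *Tmod3* over scramble was at 0.08 in replicate 2 and from -0.07 to -0.05 in the others. *Ass1* over wt was at -0.54 in replicate 1 and from -0.14 to -0.08 in the others. *Rras2* over wt was at -0.45 in replicate 1 and from -0.34 to -0.33 in the others. *Hsd11b1* over scramble was at -0.10 in replicate 4 and from 0.05 to 0.07 in the others.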

How the results depend on the processing

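Over 14 alternatives, 196 values of the members were recomputed. None changed the sign of a fall, and 19 moved by more than 1 SD. Most of these came from Agilent's processed intensities, without an offset, under which *Aspg* stood at -1.75 and -1.27, *Pcp4* at -1.30 and -1.32 and *Tmod1* at -1.37 and -0.59 against wt and scramble. *Nppc* against scramble ranged from -0.04 without replicate 1 to 0.10 without replicate 4. *F10* over scramble was -0.90 with siPax8 in Cy5 and -0.66 with siPax8 in Cy3.

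Counts of calls depended on the setting more than the values did. Agilent's processed intensities left 531 probes lower and 769 higher against wt (3357 and 2871 in the analysis reported), 0 lower and 11 higher against scramble (348 and 483), and 132 lower and 182 higher for the difference (718 and 655); of the pathway genes, 7 were then lower and 2 higher against wt (18 and 7), and 0 lower and 0 higher against scramble (4 and 2). At an unadjusted p below 0.05, these intensities called 4303 probes lower by limma against scramble, and 16 pathway genes lower and 11 higher. With siPax8 in Cy5 only, the numbers were 72 lower and 136 higher against scramble and 393 lower and 377 higher for the difference, with 13 pathway genes higher against wt, and 2 lower and 0 higher against scramble. With siPax8 in Cy3 only, they were 1775 lower and 1685 higher against wt, 1799 lower and 1671 higher against scramble, and 298 lower and 286 higher for the difference, with 11 pathway genes lower against wt, and 11 lower and 10 higher against scramble. Loess alone and Aquantile each gave 168 lower against scramble and 2 pathway genes lower there. *Vkorc1* turned to -0.18 against wt with siPax8 in Cy5 only.

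The replicate block gave 803 lower and 889 higher against scramble and 1101 lower and 1085 higher for the difference, with 4 pathway genes higher against wt and 5 higher against scramble. The slide as a random block gave 1212 lower and 1197 higher against scramble, with 9 pathway genes lower and 7 higher there; it was not run for the difference. Leaving out 1 replicate gave 1711 to 3779 lower and 1640 to 3152 higher against wt, fewest without replicate 3; 34 to 112 lower and 82 to 255 higher against scramble, fewest without replicate 2; and 187 to 514 lower and 177 to 508 higher for the difference, fewest without replicate 3. Pathway genes then numbered 14 to 19 lower and 2 to 10 higher against wt, and 2 to 3 lower and 0 to 2 higher against scramble.

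Of the 25 pathway genes called against wt, 7 were called under every alternative that tested them (13 for *Nppb*, which the filter on dim probes left out), among them *Kng1*, *F3*, *Pde2a*, *Nppb*, *Hsd17b7* and *Sult2b1*. Of the 6 called against scramble, none was, and *F3* lost its call there only under Agilent's processed intensities. Without replicate 3 the wt calls of *Tmod3*, *Capzb*, *Got2*, *Camk2n1*, *Vkorc1*, *Furin* and *Hsd17b10* were among those lost; without replicate 2 those of *Tmod3*, *Capzb*, *Camk2n1*, *Vkorc1* and *Hsd17b10*; without replicate 4 those of *Capzb*, *Camk2n1*, *Vkorc1* and *Hsd17b10*; and without replicate 1 that of *Vkorc1*. Against scramble, *Camkk2* was lost without replicates 1, 2 or 3 and *Ass1* and *Pde1a* without 2, 3 or 4. The cause of these changes was not tested.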
